A study of Mus musculus with 16 samples.

Results

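The genes described here are 10 members of the EGF family and its receptors, found by symbol among the 23306 genes of the table. The ligands are Areg, Ereg, Hbegf, Btc, Tgfa, Egf and Nrg1, and the receptors are Egfr, Erbb2 and Erbb3. They were followed in RNA-seq libraries of organoids, hollow balls of cells grown in culture from the epithelium that lines the mouse uterus. All 10 passed the filter on low values (10 or more normalized counts in 4 or more libraries), as did 16509 genes in total. Of 5 further genes of the family, Epgn, Nrg2, Nrg4 and Erbb4 were in the table. Nrg3 was not analysed here, and Epgn was under the filter.

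The 16 libraries formed 4 groups of 4. Tgfbr2 cKO organoids, labelled Tgfbr2 PRcre+, were given estradiol with medroxyprogesterone acetate (E2/MPA; libraries M13 to M16) or vehicle (M5 to M8). Control organoids, labelled Tgfbr2 FF, were given E2/MPA (M9 to M12) or vehicle (M1 to M4). Tgfbr2 encodes a TGF-beta receptor, FF is the customary notation for floxed alleles, and PRcre is a Cre recombinase expressed from the progesterone receptor gene, given in the labels for the cKO organoids. It deletes floxed sequence in cells that express or have expressed that gene, epithelial or not, and the share of organoid cells with the deletion is not known here. Treatment began on day 2 of culture and lasted 6 days: vehicle throughout, or E2 alone at 10 nM for 2 days followed by 4 days of the same E2 with MPA, a synthetic progestin, at 1 µM. Nothing in the labels tells if replicate organoids were from different mice, and the p-values therefore measure only the spread between these libraries, which may be technical.

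Ligands of the EGF family are made as membrane proteins and released by proteases called sheddases. AREG, EREG, HB-EGF, BTC, TGF-alpha, EPGN and EGF bind EGFR, and some of them also ERBB4, while the neuregulins bind ERBB3 or ERBB4. ERBB2 has no known ligand of its own and ERBB3 signals mainly through a partner, most often ERBB2. The active pairs pass the signal to the ERK and AKT kinase cascades, whose target genes include feedback inhibitors of the same pathway. In the mouse uterus, Areg is known as a progesterone-induced gene of the luminal epithelium and Hbegf as a gene expressed in the epithelium at the site of the attaching embryo.

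Levels below are normalized read counts, in which the authors scaled each library's counts by its own size factor, and depth was 14372111 to 20016836 reads per library. Epithelial markers were high in all libraries (mean log2 level of 8 genes between 13.7 and 14.3). In each group 1 library stood apart, M16, M8, M12 and M4, with a mean log2 level of 12 stromal markers of 9.61, 9.04, 9.94 and 9.98; they are called stroma-rich. M9 (8.43) and M1 (7.88) came next, and the other 10 libraries lay between 4.33 and 6.22. The mean log2 level of 5 smooth muscle markers was also highest in these 4 libraries, at 5.64 to 6.83 against 1.81 to 4.14 in the other 12, and that of 5 immune markers was 9.54 in M4 and 9.90 in M12 against 6.85 to 8.16 in the others. In such bulk samples, fewer cells of a type and less RNA per cell cannot be told apart. Tgfbr2 itself was at 3941, 4269, 3568 and 5526 in cKO organoids under E2/MPA, against 5152, 4377, 4103 and 7794 in control organoids under E2/MPA (limma, log2 fold change -0.28 with SE 0.21, adjusted p = 0.690). Under vehicle it was at 4035, 4304, 3520.1 and 5439 in cKO organoids, against 6101, 5047, 4852 and 8054 in control organoids (-0.46, adjusted p = 0.833). The values are totals over all exons and the labels do not name the floxed exons, so they do not check the genotype. Pgr, the progesterone receptor gene, fell with hormone by 1.22 on the log2 scale over both genotypes (SE 0.13, adjusted p = 3.14e-05).

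The sequences just before the transcription starts of 3 members are shown because Egfr was the member that passed the hormone test and Areg and Btc lie side by side. Epgn, Ereg, Areg and Btc are 4 consecutive protein-coding genes on mouse chromosome 5. RefSeq (GRCm38.p6, an older build than the GRCm39 named in the submitters' processing notes) gave such a window of 250 bases for 6 of the 10 members. Capitals mark a GC box, GGGCGG or CCGCCC on the other strand.
Egfr, GRCm38.p6 chr11:16751953-16752202, plus strand: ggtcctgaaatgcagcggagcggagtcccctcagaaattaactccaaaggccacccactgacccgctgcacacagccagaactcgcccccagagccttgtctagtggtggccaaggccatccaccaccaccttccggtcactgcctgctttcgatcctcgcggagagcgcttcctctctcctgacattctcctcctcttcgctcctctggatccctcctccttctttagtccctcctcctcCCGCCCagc
Areg, GRCm38.p6 chr5:91139349-91139598, plus strand: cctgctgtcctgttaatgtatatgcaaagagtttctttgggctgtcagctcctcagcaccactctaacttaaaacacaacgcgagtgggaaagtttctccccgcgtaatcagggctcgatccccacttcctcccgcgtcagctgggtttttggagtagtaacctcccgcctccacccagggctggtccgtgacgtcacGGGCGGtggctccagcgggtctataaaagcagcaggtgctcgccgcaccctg
Btc, GRCm38.p6 chr5:91402995-91403244, minus strand: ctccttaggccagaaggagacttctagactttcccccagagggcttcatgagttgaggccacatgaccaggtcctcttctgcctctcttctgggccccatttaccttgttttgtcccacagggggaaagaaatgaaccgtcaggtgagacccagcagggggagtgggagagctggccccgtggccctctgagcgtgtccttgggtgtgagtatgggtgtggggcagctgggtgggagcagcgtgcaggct

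Motifs were searched on both strands. A GC box was in the windows of Egfr (1), Areg (1) and Tgfa (2) and in none of those of Btc, Erbb2 and Egf, while 32.7% of 32851 promoters of all genes held at least 1. Neither the palindrome bound by the progesterone and glucocorticoid receptors (in 0.00913% of all promoters), nor its single arm TGTTCT (16.1%), which lies within it, nor the estrogen receptor palindrome (0.0639%), nor the AP-1 site TGANTCA (6.75%) was found in the windows of the 6 members. A window without a motif says nothing of sites elsewhere.

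Per kilobase of exon, the receptor Erbb3 had the highest level of the family in each of the 4 groups. It averaged 673 ± 56.9 normalized counts per kb in cKO organoids under E2/MPA, 596 ± 53.3 in cKO organoids under vehicle, 554 ± 37.8 in control organoids under E2/MPA and 504 ± 68.1 in control organoids under vehicle (SD, n = 4 each). Its libraries lay above those of every other member in all groups but control vehicle, where they overlapped Hbegf. Hbegf (408 ± 60.7, 453 ± 30.6, 312 ± 53.7 and 411 ± 112 per kb in the same order) and Erbb2 (351 ± 30.4, 403 ± 27.1, 325 ± 32.7 and 357 ± 22.2 per kb) overlapped in each group. Tgfa (146 ± 9.11, 150.4 ± 14.7, 109.9 ± 9.75 and 134 ± 23.2 per kb) and Egfr (95.2 ± 10.6, 119 ± 14.5, 78.0 ± 8.15 and 119 ± 31.8 per kb) followed. Per kb, Tgfa was above Egfr in every library of its group except under control vehicle, where they overlapped. The length used is that of all annotated exons of a gene together, and the order and shares between genes depend on it. In counts not divided by length, mean Egfr was above mean Tgfa in each group. In the same order of groups it was 1078 against 948, 1344 against 976, 883 against 713 and 1351 against 867. Btc, Areg, Ereg, Nrg1 and Nrg4 lay lower and overlapped their neighbours in most groups, at group means between 12.9 and 73.9 per kb. Erbb4 was lower again, between 5.17 and 9.16 per kb, and Nrg2, Epgn and Egf were at most 3.88 per kb.

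Among the 4 receptors, the share of Erbb3 in their summed per-kb level was 59.6% ± 1.73 in cKO organoids under E2/MPA and 53.1% ± 2.25 in cKO organoids under vehicle. It was 57.5% ± 0.532 in control organoids under E2/MPA and 51.0% ± 3.67 in control organoids under vehicle (SD, n = 4 each). The E2/MPA libraries did not overlap the vehicle libraries in either genotype (57.1 to 61.2% against 49.8 to 54.6% in cKO, 57.0 to 58.2% against 45.7 to 53.8% in control). In counts, Erbb3 overlapped between treatments in both genotypes, and its share also depends on the levels of the other receptors. How often other shares would lie without overlap is not given here. The share of Egfr was 8.49% ± 1.26 and 10.6% ± 1.45 in cKO organoids under E2/MPA and vehicle, and 8.16% ± 1.42 and 12.3% ± 4.04 in control organoids under E2/MPA and vehicle. Erbb4 made up at most 1.05% of the receptor level in any library. Among the 7 ligands of EGFR, Hbegf made up 57.4 to 59.5% and Tgfa 19.1 to 21.4% of the summed per-kb level as group means, while Egf, the ligand the family is named after, made up at most 0.218% as a group mean. Among the neuregulins, Nrg1 made up 37.3% ± 17.8 and 58.2% ± 16.2 in cKO organoids under E2/MPA and vehicle, and 33.9% ± 18.4 and 68.6% ± 18.5 in control organoids under E2/MPA and vehicle. Nrg4 made up most of the rest, 54.0% ± 19.5 and 39.2% ± 16.4 in cKO organoids and 59.1% ± 16.6 and 28.9% ± 18.8 in control organoids, in the same order. These shares were not tested.

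The first comparison asked how the family responds to E2/MPA. Egfr (ENSMUSG00000020122), the receptor of most of these ligands, fell, and the neuregulin gene Nrg4 rose, over both genotypes. Nrg2, a neuregulin gene at very low counts, also passed but entered the test through its E2/MPA libraries, and no other member or family gene passed. Egf, which did not pass, entered the test in the same way. Erbb3 and Erbb2, the pair of receptors with the highest levels, did not pass, and of the 6 EGFR ligands tested, all but Egf had a log2 fold change below 0 without passing. In control organoids 1 of the 10 members was called, as lower, where 8.90% of all 16509 genes were called and 3.51% as lower. There 890 genes rose and 579 fell, or 783 and 833 under quantile normalization. In cKO organoids it was 0 of 10, where 4.19% of all genes were called (limma on log2(value + 1), Benjamini-Hochberg adjusted p under 0.05). In the mean of both genotypes it was 1 of 10, against 19.8% of all genes. The median log2 fold change of the members over both genotypes was -0.288, with 8 of 10 below 0, and that of all tested genes -0.002.

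Egfr was at 941, 1033, 1117 and 1223 in cKO organoids under E2/MPA, against 1232, 1174, 1474 and 1495 in cKO organoids under vehicle. Its control values were 898, 776, 860.0 and 998 under E2/MPA, against 1455, 1036, 1098 and 1815 under vehicle. Every control library under E2/MPA lay below every control library under vehicle, as did those of 5.49% of all tested genes, whereas in cKO 1 library under E2/MPA lay above the lowest under vehicle. Egfr fell by 0.58 on the log2 scale in control organoids (SE 0.16, adjusted p = 0.0300). In cKO organoids the log2 fold change was -0.32 (SE 0.16, adjusted p = 0.296), and the difference between the genotypes did not pass (interaction 0.27, 95% confidence interval -0.20 to 0.73, adjusted p = 1.00). Over both genotypes Egfr fell by 0.45 (SE 0.11, adjusted p = 0.0104), a fold change of 0.733. The call over both genotypes held without any single library (adjusted p 0.00382 to 0.0252) and at every alternative setting (1.86e-05 to 0.0124). The call in control organoids was lost without M1 (adjusted p = 0.0948), M4 (0.0711), M9 (0.0588), M10 (0.103) or M11 (0.0805), and when only the control libraries were fitted (0.126). M4 and M1, the highest Egfr values among control libraries under vehicle, were rich in stromal markers; without these and M8, M9, M12 and M16 the fall in control was 0.38 (limma adjusted p = 0.0545), and over both genotypes 0.35 (adjusted p = 0.00596).

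**Figure D1:**
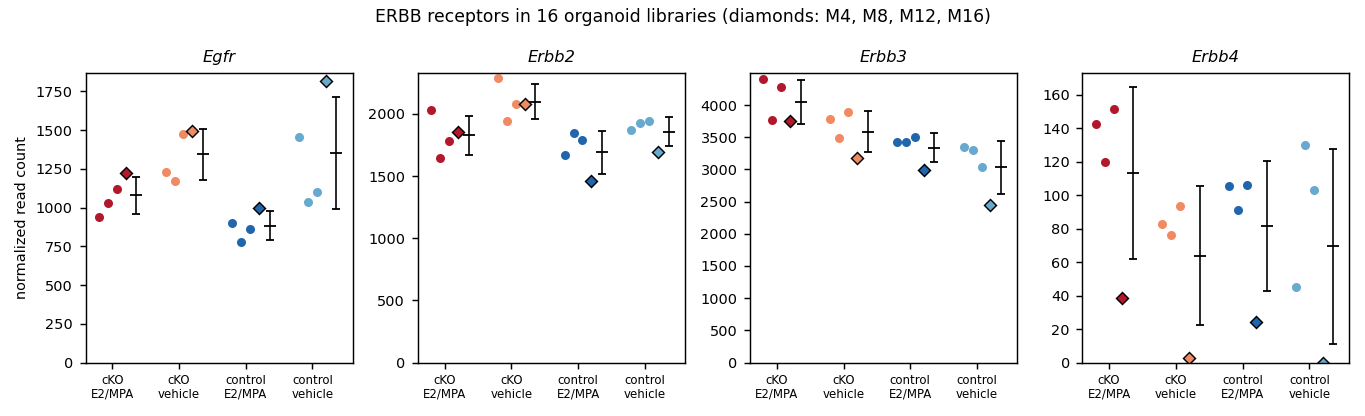
Normalized read counts of the 4 receptor genes in each library, by group (points, with mean and SD bars beside them; diamonds are the stroma-rich libraries; each axis starts at 0). Egfr lay at 776 to 998 in the 4 control libraries under E2/MPA and at 1036 or more in those under vehicle, Erbb3 was lowest in the stroma-rich library of each group, and Erbb4 was at 0 in M4.

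Erbb2 (ENSMUSG00000062312), the receptor without a ligand, was at 2028, 1649, 1779 and 1857 in cKO organoids under E2/MPA, against 2287, 1945, 2078 and 2081 in cKO organoids under vehicle. Control organoids had 1667, 1845, 1792 and 1461 under E2/MPA, against 1874, 1923, 1947 and 1691 under vehicle. The groups overlapped in both genotypes, and the log2 fold change over both was -0.17 (SE 0.06, adjusted p = 0.0598). It passed under upper quartile scaling (adjusted p = 0.0292) and quantile normalization (0.0135), which put Erbb2 at -0.20 and -0.22, and DESeq2 (0.0435). Erbb2 shares 9 exonic bases with Mien1 on the other strand; whether the authors counted by strand is not stated, so reads of such overlaps cannot be told apart here and below.

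Erbb3 (ENSMUSG00000018166), a neuregulin receptor, was at 4397, 3762, 4287 and 3747 in cKO organoids under E2/MPA, against 3787, 3492, 3888 and 3176 in cKO organoids under vehicle. Values in control organoids were 3423, 3426, 3496 and 2999 under E2/MPA, against 3345, 3297, 3042 and 2454 under vehicle. The groups overlapped, and the log2 fold change over both genotypes was 0.16 (SE 0.07, adjusted p = 0.133). Erbb4 (ENSMUSG00000062209), the other neuregulin receptor, was at 143, 119.8, 152 and 38.7 in cKO organoids under E2/MPA and 83.0, 76.4, 93.7 and 2.51 in cKO organoids under vehicle. In control organoids it was at 105, 91.0, 106 and 24.2 under E2/MPA and at 45.0, 129.8, 103 and 0 under vehicle. The last library of each group was the stroma-rich one and the lowest, and the hormone effect had a wide interval (log2 fold change 1.38, 95% confidence interval -0.67 to 3.42, adjusted p = 0.351). Fits of read counts put Erbb4 lower over both genotypes, at 0.53 with edgeR (adjusted p = 0.639) and 0.53 with DESeq2 (adjusted p = 0.688). With the mean stromal marker level as a covariate in limma Erbb4 was called as higher, at 1.63 (adjusted p = 0.0341). Without the 6 libraries richest in stromal markers it was 0.23 over both genotypes (adjusted p = 0.209), 0.70 in cKO organoids (adjusted p = 0.0141, called) and -0.23 in control organoids (adjusted p = 0.501).

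Of the EGFR ligands, Hbegf (ENSMUSG00000024486), which encodes heparin-binding EGF-like growth factor, had the highest counts. It was at 1771, 1839.5, 1862 and 2406 in cKO organoids under E2/MPA, against 2031, 2303, 2094 and 2326 in cKO organoids under vehicle. Its control values were 1646, 1181, 1439 and 1775 under E2/MPA, against 2392, 1396, 1658 and 2492 under vehicle. The groups overlapped in both genotypes (log2 fold change over both -0.26, SE 0.12, adjusted p = 0.148). Tgfa (ENSMUSG00000029999), which encodes transforming growth factor alpha, was at 893, 1019.7, 906 and 973 in cKO organoids under E2/MPA, against 978, 958, 868 and 1100.1 in cKO organoids under vehicle. Control organoids had 761, 636, 687 and 769 under E2/MPA, against 987, 734, 741 and 1008 under vehicle. These groups overlapped as well (-0.15, SE 0.08, adjusted p = 0.193).

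Btc (ENSMUSG00000082361), which encodes betacellulin, was at 268, 352, 241 and 312 in cKO organoids under E2/MPA, against 278, 340.2, 323 and 394 in cKO organoids under vehicle. Values in control organoids were 199, 178, 173 and 344 under E2/MPA, against 340.3, 268, 233 and 365 under vehicle. The stroma-rich M12 (344) was the only E2/MPA control library above the lowest vehicle one. The log2 fold change in control was -0.47 (SE 0.21, adjusted p = 0.190), and without M12 Btc fell by 0.69 (limma adjusted p = 0.0161). That fit kept M4, the stroma-rich vehicle library with the highest control value (365). Without M4, M8, M12 and M16 the log2 fold change in control was -0.59 (limma adjusted p = 0.0352). Without M1 and M9 as well it was -0.51 and did not pass (limma adjusted p = 0.0832).

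Areg (ENSMUSG00000029378), which encodes amphiregulin, was at 26.2, 68.7, 34.2 and 57.0 in cKO organoids under E2/MPA, against 32.5, 67.2, 45.2 and 125 in cKO organoids under vehicle. Its control values were 41.2, 28.00, 25.9 and 50.6 under E2/MPA, against 101, 54.2, 41.7 and 127 under vehicle. The mean of Areg was lower under E2/MPA in both genotypes, and the groups overlapped. The log2 fold change was -0.44 in cKO (SE 0.44, adjusted p = 0.653) and -1.04 in control (SE 0.44, adjusted p = 0.163). Over both genotypes it was -0.74, with a 95% confidence interval of -1.41 to -0.08 (adjusted p = 0.111). DESeq2 called Areg as lower (-0.85, adjusted p = 0.0456), while edgeR did not (adjusted p = 0.0775). Its neighbour Ereg (ENSMUSG00000029377), which encodes epiregulin, was at 54.7, 159, 66.1 and 205 in cKO organoids under E2/MPA, against 62.8, 118, 66.6 and 287 in cKO organoids under vehicle. In control organoids Ereg was at 64.1, 75.00, 64.0 and 162 under E2/MPA, against 220.0, 63.2, 65.5 and 258 under vehicle. The lowest library of each group lay at 54.7 to 64.0 and the highest at 162 to 287, so the groups overlapped (log2 fold change over both genotypes -0.31, SE 0.42, adjusted p = 0.666). Exons of Ereg share 141 bases with an antisense gene, and those of Tgfa share 118 bases with a predicted gene, on the other strand.

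Egf (ENSMUSG00000028017) was read at 4 to 19 reads per library. It was at 4.76, 8.81, 13.7 and 11.8 in cKO organoids under E2/MPA, against 4.49, 5.88, 5.65 and 5.02 in cKO organoids under vehicle. Control organoids had 6.87, 17.0, 16.4 and 7.70 under E2/MPA, against 4.89, 14.7, 9.00 and 8.80 under vehicle. The groups overlapped in both genotypes (log2 fold change over both 0.51, SE 0.28, adjusted p = 0.221), and 2 antisense genes share exonic bases with Egf. Egf reached the filter value in 4 libraries under E2/MPA and 1 under vehicle. It thus entered the test through the treatment in which it was higher, and its hormone result is a description. Epgn, the gene of epigen and the first of the 4 neighbours, had at most 8 reads in any library and was not tested.

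**Figure D2:**
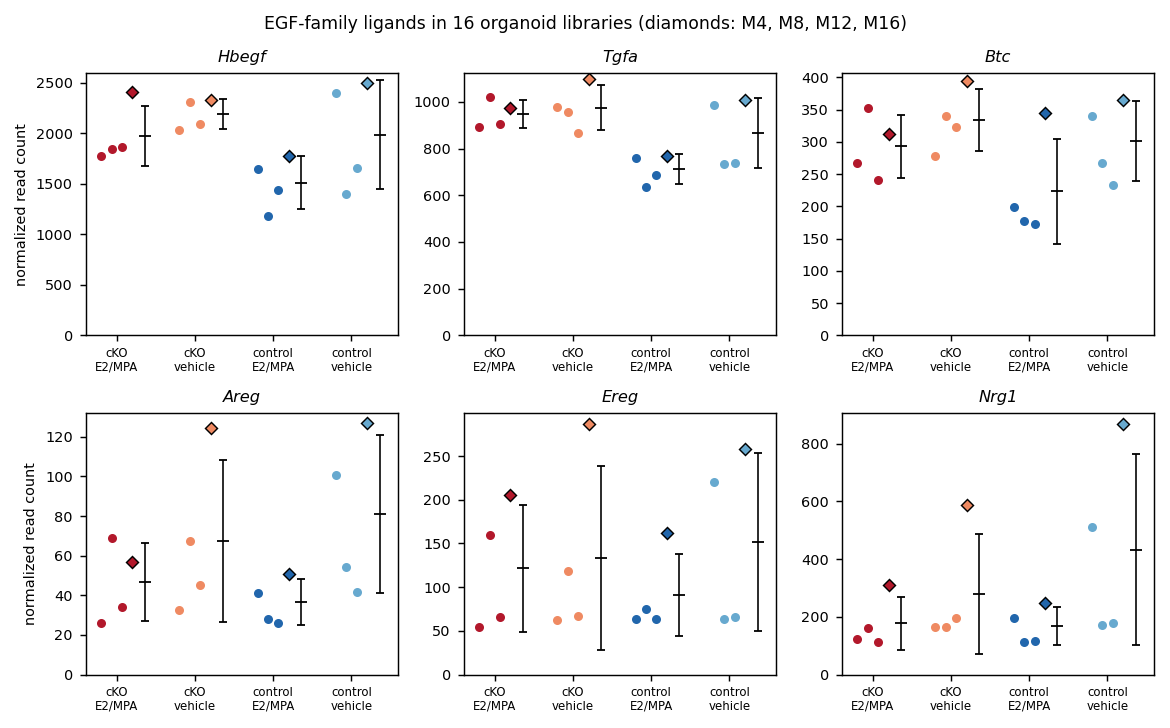
Normalized read counts of 6 ligand genes in each library, by group (points, with mean and SD bars beside them; diamonds are the stroma-rich libraries; each axis starts at 0). Ereg, Hbegf and Nrg1 were highest in the stroma-rich library of every group, and E2/MPA and vehicle libraries of a genotype overlapped for all 6 genes.

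Nrg1 (ENSMUSG00000062991), the gene of neuregulin 1, was at 124, 161, 113 and 311 in cKO organoids under E2/MPA, against 166, 165, 197 and 588 in cKO organoids under vehicle. Values in control organoids were 197, 113, 115 and 249 under E2/MPA, against 511, 172, 180.0 and 868 under vehicle. The highest value of each group was again that of the stroma-rich library. The log2 fold change over both genotypes was -0.82 (SE 0.38, adjusted p = 0.148). DESeq2 called Nrg1 as lower (-1.01, adjusted p = 0.0373), while edgeR did not (adjusted p = 0.0883). Without M4, M8, M12 and M16 it was -0.64 and did not pass (limma adjusted p = 0.0941). Without the 6 libraries richest in stromal markers Nrg1 fell by 0.52 over both genotypes (limma adjusted p = 0.00779). In that fit, which kept 4 control libraries and was chosen after seeing the data, 11.5% of all genes were called lower. Exons of Nrg1 share 482 bases with a long non-coding gene on the other strand.

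Nrg4 (ENSMUSG00000032311), a neuregulin that binds ERBB4, was at 225, 106, 187 and 90.3 in cKO organoids under E2/MPA, against 120.1, 70.6, 103 and 67.8 in cKO organoids under vehicle. Its control values were 215, 171, 283 and 86.9 under E2/MPA, against 95.8, 46.3, 127 and 45.6 under vehicle. The E2/MPA libraries were higher on average in both genotypes, but the groups overlapped, with the stroma-rich library the lowest of each. Nrg4 rose by 0.98 on the log2 scale over both genotypes (SE 0.29, adjusted p = 0.0291, 10.8% of all genes called higher), and the call was lost in 8 of the 16 fits that left out 1 library (adjusted p up to 0.0642). Nrg4 shares 368 exonic bases with Fbxo22 on the other strand. How reads of these bases were counted is not stated, so they may be added to Nrg4 or missing from it. Nrg2 (ENSMUSG00000060275) was low, at 8.33, 15.0, 11.4 and 14.0 in cKO organoids under E2/MPA, against 3.37, 4.20, 0 and 5.86 in cKO organoids under vehicle. Control organoids had 12.6, 11.0, 16.4 and 5.50 under E2/MPA, against 4.89, 1.13, 3.27 and 10.4 under vehicle. Nrg2 reached the filter value of 10 in 6 libraries under E2/MPA and in 1 under vehicle, so it entered the test only through the treatment in which it was high, and its result there is a description. The fitted log2 fold change over both genotypes was 1.55 (SE 0.42, adjusted p = 0.0186). Fitted with no filter on low values, it was the same with an adjusted p of 0.0220.

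**Figure D3:**
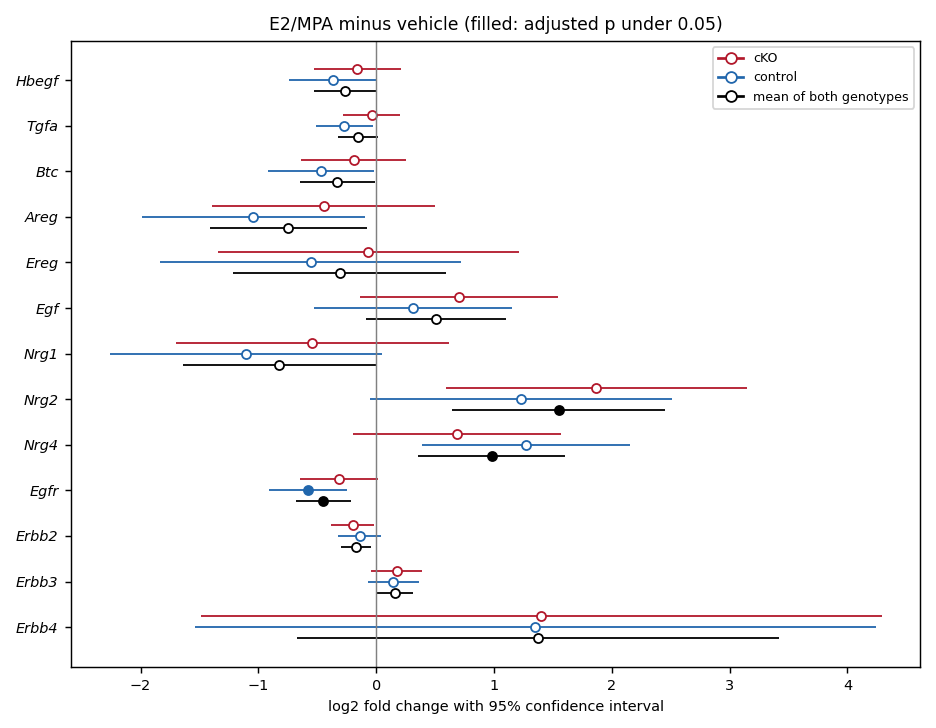
Log2 fold change of E2/MPA over vehicle with its 95% confidence interval for the 13 family genes tested, in cKO organoids, in control organoids and as the mean of both (limma; filled points have an adjusted p under 0.05). Filled points are those of Egfr in control (-0.58) and, in the mean of both genotypes, of Egfr (-0.45), Nrg4 (0.98) and Nrg2 (1.55), the last of which passed the filter through its E2/MPA libraries. Egf, not filled, passed the filter in the same way.

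How many members were called depended on how the spread between libraries was modelled. With libraries 8 title numbers apart (M1 with M9, and so on) as a random replicate block, a pairing that the labels do not state, 8 of the 10 members were called over both genotypes: Egfr, Areg, Btc, Erbb2, Hbegf, Nrg1 and Tgfa fell and Erbb3 rose. In that fit 38.5% of all genes were called, 18.8% as lower and 19.6% as higher. With the mean stromal marker level as a covariate in place of the block, the same 8 were called in the same directions, where 33.8% of all genes were called, 16.2% as lower and 17.7% as higher. In control organoids each of these fits called Egfr, Areg, Btc, Hbegf, Nrg1 and Tgfa as lower (6 of 10, against 27.1% of all genes with the block and 22.9% with the covariate). In cKO organoids the block fit called Egfr (adjusted p = 0.0428) and Erbb2 (0.0185), against 18.8% of all genes. Ereg and Egf were called in none of these fits.

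The second comparison set cKO against control organoids. Erbb3, Hbegf, Erbb2 and Tgfa, the 4 members highest per kb, had higher means in cKO organoids under either treatment, and none of the 10 members passed the test under vehicle, under E2/MPA or over both treatments. The shares of all 16509 genes called were 0%, 0.00606% and 0.479% in these comparisons, so that few genes of any kind passed. Under vehicle limma called 0 genes, with 984 at an unadjusted p under 0.05, edgeR 0 and DESeq2 16. With no effect on any gene, a share of about 0.05 of all 16509 genes is expected under that unadjusted threshold. Under E2/MPA 9 of the 10 members had a log2 fold change above 0, with a median of 0.292 against -0.009 for all tested genes. Under vehicle 6 of 10 were above 0, with a median of 0.090 against 0.001.

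Under E2/MPA Tgfa averaged 948 ± 59.2 in cKO organoids and 713 ± 63.3 in control organoids (SD, n = 4 each), and all cKO libraries lay above all control libraries (log2 fold change 0.41, SE 0.11, adjusted p = 0.202). With vehicle, Tgfa averaged 976 ± 95.4 in cKO organoids and 867 ± 150.4 in control organoids, and the groups overlapped (0.18, SE 0.11, adjusted p = 0.861). Erbb3 was also without overlap under E2/MPA, with 4048 ± 342 in cKO and 3336 ± 227 in control organoids (0.28, SE 0.10, adjusted p = 0.328), against 3586 ± 321 in cKO and 3035 ± 409 in control organoids under vehicle (0.25, SE 0.10, adjusted p = 0.824). These 2 of 10 members stand beside 3.82% of all genes whose cKO libraries all lay higher under E2/MPA. Hbegf averaged 1970.0 ± 293 in cKO and 1510.1 ± 259 in control organoids under E2/MPA (0.39, SE 0.17, adjusted p = 0.430), and 2188 ± 148 in cKO and 1984 ± 540.3 in control organoids under vehicle (0.18, SE 0.17, adjusted p = 0.933). Egfr averaged 1078 ± 120.0 in cKO and 883 ± 92.3 in control organoids under E2/MPA (0.29, SE 0.16, adjusted p = 0.535), and 1344 ± 164 in cKO and 1351 ± 360.3 in control organoids under vehicle (0.02, SE 0.16, adjusted p = 0.991).

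Over both treatments the log2 fold change of cKO over control was 0.30 for Tgfa (SE 0.08, adjusted p = 0.0946) and 0.26 for Erbb3 (SE 0.07, adjusted p = 0.0994), the 2 members closest to the threshold. It was 0.28 for Hbegf (adjusted p = 0.284), 0.30 for Btc (0.361), 0.14 for Erbb2 (0.266) and 0.15 for Egfr (0.546). Areg (0.00), Ereg (0.07), Nrg1 (-0.25) and Egf (-0.45) had adjusted p-values between 0.474 and 0.997. With the stromal marker level as a covariate, Tgfa (adjusted p = 0.00427), Hbegf (0.0155), Erbb3 (0.0181) and Btc (0.0384) were higher in cKO organoids, 4 of 10 members where 7.47% of all genes were called. DESeq2 on the recovered reads called Tgfa (adjusted p = 0.0266) and Erbb3 (0.0270), where it called 3.94% of all genes. Without the 6 libraries richest in stromal markers these 4 and Egfr passed (adjusted p 0.00136 to 0.0230), 5 of 10 members where 15.3% of all genes were called, in a fit that kept 6 cKO and 4 control libraries. With the random replicate block none of the 10 passed (adjusted p at least 0.346), and 3 genes in place of 79, or 0.0182% of all, were called. None of the 10 members passed the interaction, which limma called for 0 of 16509 genes (309 at an unadjusted p under 0.05), while edgeR and DESeq2 also called 0 (318 and 297 at an unadjusted p under 0.05). The share of about 0.05 expected with no effect on any gene applies to these counts too.

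The other genes of the pathway came from lists of proteins that shed the ligands, carry the signal, restrain the receptors or respond to ERK. These lists, like the members, were chosen with earlier results of these data known. Over both genotypes, E2/MPA raised 6 and lowered 0 of 24 adaptors and kinases, raised 2 and lowered 7 of 18 ERK feedback genes and targets, raised 2 and lowered 1 of 9 sheddases and their regulators, and raised 1 and lowered 1 of 12 receptor inhibitors. Of all tested genes 10.8% were called higher and 9.03% lower. Under quantile normalization the split of all calls was 1482 higher and 1939 lower, in place of 1778 and 1491, and that of the ERK list 1 higher and 9 lower. Median log2 fold changes were 0.003 for the adaptors, -0.260 for the ERK list, 0.008 for the sheddases and -0.046 for the inhibitors, against -0.002 for all genes.

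Of the sheddase list, Adam15, a membrane metalloprotease, averaged 709 ± 37.4 in cKO organoids under E2/MPA against 506 ± 29.0 under vehicle, and 811 ± 101 in control organoids under E2/MPA against 526 ± 60.5 under vehicle. It rose by 0.56 on the log2 scale over both genotypes (SE 0.07, adjusted p = 8.77e-05), with no overlap in either, as was so in the same direction for 8.01% of all genes in cKO and 6.66% in control organoids. Adam17, the main sheddase of several EGFR ligands, averaged 1853 ± 269 in cKO organoids under E2/MPA against 1468 ± 167 under vehicle, and 1708 ± 172 in control organoids under E2/MPA against 1528 ± 176 under vehicle. It rose by 0.25 (SE 0.08, adjusted p = 0.0442), a call lost in 11 of the 16 fits that left out 1 library (adjusted p up to 0.0825) and in others of the alternative settings (up to 0.103). Rhbdf2, which encodes the ADAM17 partner iRhom2, fell by 0.21 (SE 0.04, adjusted p = 0.00348).

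Of the inhibitors, Lrig1, a membrane protein that promotes degradation of ERBB receptors, averaged 3192 ± 272 in cKO organoids under E2/MPA against 5815 ± 789 under vehicle, and 2615 ± 459 in control organoids under E2/MPA against 4411 ± 1333 under vehicle. The groups did not overlap in either genotype (5.80% of all genes were lower without overlap in cKO and 5.49% in control organoids), and Lrig1 fell by 0.79 (SE 0.12, adjusted p = 3.75e-04). Ptpn1, a tyrosine phosphatase that acts on EGFR and other receptors, averaged 4294 ± 605 in cKO organoids under E2/MPA against 2159 ± 360.4 under vehicle, and 3999 ± 739 in control organoids under E2/MPA against 1949.6 ± 502 under vehicle. It rose by 1.02 (SE 0.13, adjusted p = 1.29e-04), also with no overlap, in the direction and at the shares given for Adam15.

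Among ERK feedback genes and targets, Spry4 fell by 0.83 (SE 0.18, adjusted p = 0.00452) and Spry2 by 0.65 (SE 0.14, adjusted p = 0.00598), while their relative Spry1 rose by 0.45 (SE 0.09, adjusted p = 0.00281). All 3 encode Sprouty proteins, feedback inhibitors of receptor tyrosine kinase signalling. Ccnd1, which encodes cyclin D1, averaged 7091 ± 567 in cKO organoids under E2/MPA against 8767 ± 923 under vehicle, and 6872 ± 492 in control organoids under E2/MPA against 8744 ± 541 under vehicle. It fell by 0.33 (SE 0.06, adjusted p = 0.00188). Dusp4, Etv5, Fos and Phlda1 also fell and Mcl1 rose. Spry2, Dusp4, Fos and Phlda1 were highest in the stroma-rich library of all 4 groups, and Spry4 and Etv5 of 3. Without the 6 libraries richest in stromal markers 8 of 18 were called lower and 1 higher, where 11.5% of all genes were called lower and 13.4% higher. Of the adaptors and kinases, Stat3 (0.38), Grb2 (0.37), Shc1 (0.25), Akt2 (0.21), Hras (0.30) and Pik3r1 (0.81) rose on the log2 scale, Akt2 with adjusted p-values up to 0.0990 at other settings. With the random replicate block 9 of these 24 genes rose and 5 fell, where 19.6% of all genes were called higher and 18.8% lower.

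Between genotypes none of the 63 pathway genes tested was called in any comparison. All 18 genes of the ERK list had a log2 fold change of cKO over control above 0 over both treatments (median 0.192), and under E2/MPA (median 0.304), against medians of -0.006 and -0.009 for all tested genes. Of all 16509 tested genes, 7989 were above 0 over both treatments and 7940 under E2/MPA. The genes of this list respond to a shared pathway and were measured in the same libraries, so they are not independent. The list was also chosen with earlier results of these data known, so its direction and the calls below are a description. With the stromal marker level as a covariate 9 of the 18 passed as higher in cKO organoids over both treatments, where 4.52% of all genes did. Without the 6 libraries richest in stromal markers 13 passed as higher, where 7.89% of all genes did, and with the random replicate block 0.

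**Figure D4:**
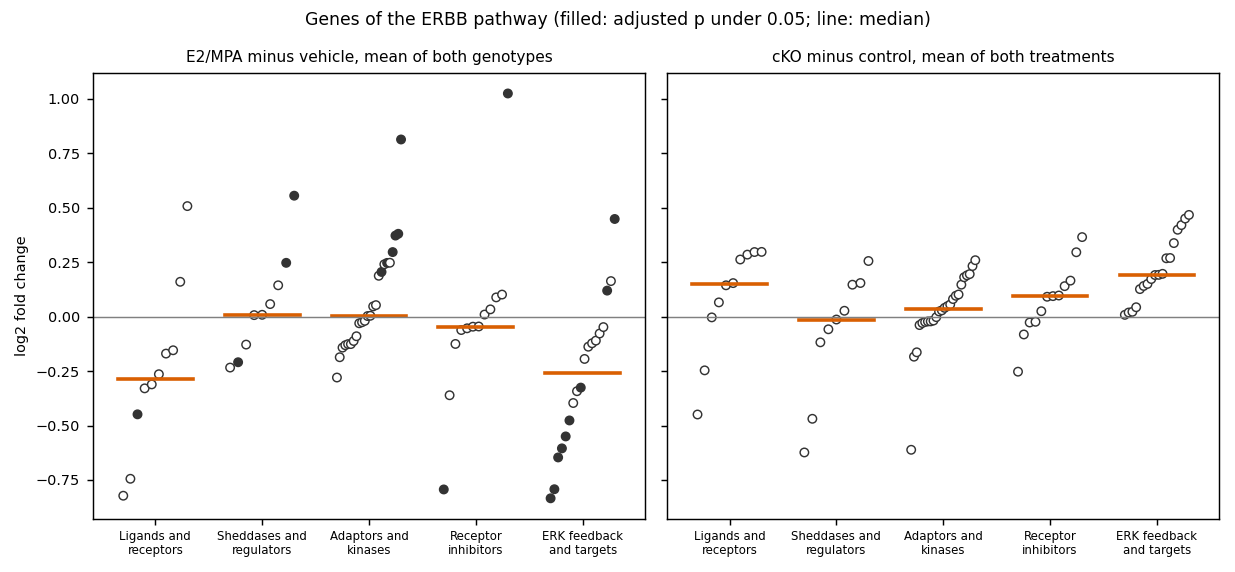
Log2 fold changes of the 10 members and 4 pathway lists, for E2/MPA over vehicle in the mean of both genotypes (left) and for cKO over control in the mean of both treatments (right); each point is a gene, filled where its adjusted p was under 0.05, and the line is the list's median. On the left the medians of the members (-0.288) and of the ERK list (-0.260) were the lowest of the 5, and on the right no point is filled.

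The members differed in how they varied with the stromal markers within groups. Ereg, Hbegf, Egfr and Nrg1 were highest in the stroma-rich library of all 4 groups, as were 12.1% of all tested genes, and Areg, Btc and Tgfa were so in 3 groups. Erbb3, Nrg4 and Erbb4 were lowest in that library in all 4 groups, as were 9.26% of all tested genes, and Erbb2 was so in 2. In a fit with group means, a rise of 1 in the mean log2 stromal level went with a difference of 0.36 in log2 Nrg1, 0.35 in Ereg, 0.25 in Areg, -0.18 in Nrg4 and -0.78 in Erbb4. For Hbegf, Btc, Tgfa, Egf, Egfr, Erbb2 and Erbb3 it was between -0.09 and 0.12. The epithelial marker mean was also highest in the stroma-rich library of all 4 groups. The part of the stromal transcripts in the hormone and genotype results was not tested beyond the fits without these libraries and with the covariate.

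**Figure D5:**
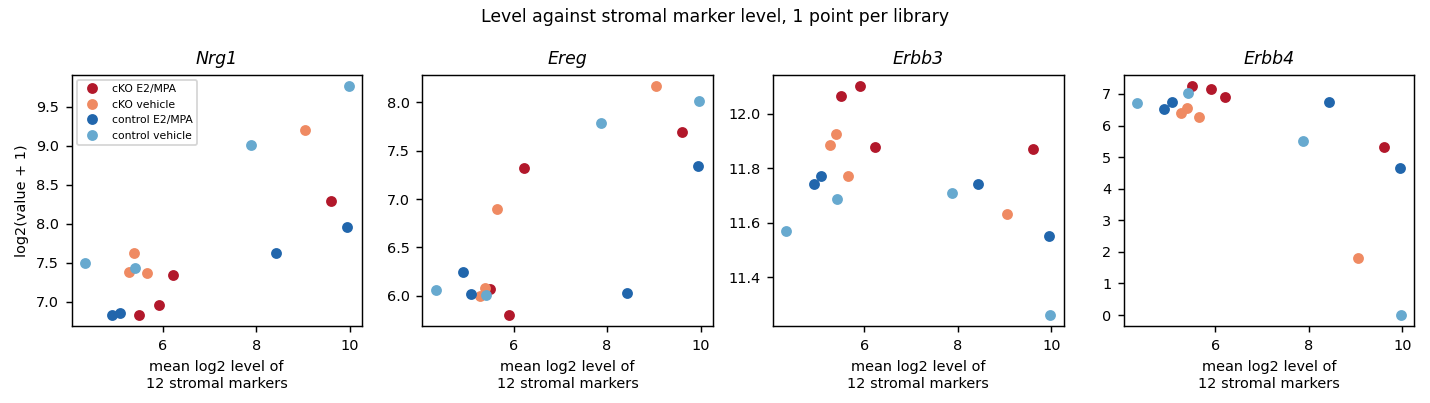
Log2(value + 1) of Nrg1, Ereg, Erbb3 and Erbb4 against the mean log2 level of 12 stromal markers, with 1 point per library coloured by group (the axes need not start at 0). In each group Nrg1 and Ereg were highest, and Erbb3 and Erbb4 lowest, in the library with the highest stromal level (M16, M8, M12 or M4, at 9.04 to 9.98).

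For the 3 members whose group means ranged most widely on the log2 scale, the tested genes with the most similar pattern were found by the root mean square difference of centred log2 levels over the 16 libraries. The range of group means was 1.10 for Nrg1, 1.04 for Areg and 0.96 for Egf. Nearest to Nrg1, which itself spread by 0.86 around its mean, were Nat8l (0.28), Pde4b (0.29) and Ror2 (0.33). Nearest to Areg, with a spread of 0.71, were Tpbg (0.29), Syt8 (0.32) and Epha4 (0.34). Nearest to Egf, with a spread of 0.58, were Trerf1 (0.32), Sod2 (0.35) and Slc25a12 (0.36). Egf is the member with the lowest counts. All of these values share the libraries and their stromal content.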

How the data were processed

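Per the labels, TruSeq libraries of Trizol-extracted RNA were sequenced on an Illumina NovaSeq instrument. HISAT2, featureCounts and DESeq2 (no versions) and the build GRCm39 appear in the submitters' processing notes. The deposited signal values are, by their own steps, read counts that the authors divided by a size factor for each library: all values were whole reads within 0.01 read after undoing it. Genes were named and exon lengths taken from a GRCm38.p6 annotation (822 genes, 1.83% of reads, stayed unnamed). Values were tested as log2(value + 1) with limma 3.58.1 in R 4.3.3, with trend, over all 16 libraries, keeping genes at 10 or more in at least 4 libraries, with Benjamini-Hochberg adjustment over 16509 genes and a threshold of 0.05. Fold changes on this scale can understate changes of low genes, but for Erbb4 the hormone effect in limma was above that of edgeR and DESeq2. Confidence intervals are unadjusted.

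Members and lists were chosen with earlier results of these data known. From each pathway list, up to 4 genes past the threshold with the lowest adjusted p for hormone over both genotypes were named by rule, as were all family genes; Dusp4, Etv5, Fos, Phlda1, Mcl1, Hras and Pik3r1 were named after their values were seen. Alternatives included edgeR 4.0.16 and DESeq2 1.42.0 on the recovered reads, other scalings, pseudocounts and filters, and leaving out libraries. Deviations from group means of libraries 8 title numbers apart correlated in all 8 pairs (r 0.386 to 0.746), hence the block fit. The highest values were those of the stroma-rich pairs, M4 with M12 (0.746) and M8 with M16 (0.723). Correlations of other pairs are not given here, so these values do not single out this pairing. No 2 replicates agreed within sampling noise (chi-square per degree of freedom at least 7.70). The plain limma fit was tested on simulated data for the hormone effect in control only. Those libraries were drawn independently, without pairs or stroma-rich libraries, and the other fits were not tested in this way.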

Additional observations from a re-analysis of the deposited data

Results flagged for a closer look

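Of 56 groups of 4 libraries checked over 14 family genes, 5 held a library far from the other 3 by Dixon's criterion; chance alone gives about 1 in 20. In each case it was a stroma-rich library. Ereg was at 162 in M12 of control organoids under E2/MPA, against 64.0 to 75.00 in the other libraries of that group. Btc was at 344 in the same library, against 173 to 199. Erbb3 was at 2999 there, against 3423 to 3496. Hbegf was at 2406 in M16 of cKO organoids under E2/MPA, against 1771 to 1862, and Nrg1 was at 588 in M8 of cKO organoids under vehicle, against 165 to 197.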

How the results depend on the processing

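The number of members called for the hormone effect in control organoids was 1. It was 0 with only the groups compared fitted, 2 without M4, M8, M12 and M16, and 6 with the random replicate block, with the stromal covariate and with both, and 0 to 2 when 1 library was left out. In cKO organoids it was 0, and 2 with the block, 2 with the covariate, 4 with both and 1 without the 6 libraries richest in stromal markers. Over both genotypes it was 1, and 2 with upper quartile scaling and quantile normalization, 4 with DESeq2, 3 with array weights, 8 with the block, the covariate and both, 2 without 4 libraries, 3 without 6, and 1 to 2 without 1 library. For genotype it was 0; it became 1 under vehicle without 6 libraries, and under E2/MPA 1 with array weights, 2 with the covariate or both and 3 without 6. Over both treatments it became 2 with DESeq2, 4 with array weights or the covariate, 3 with both and 5 without 6. All genes called for hormone numbered 484 to 4804 in control, 591 to 3650 in cKO and 3074 to 6579 over both genotypes. Over both genotypes 19.8% of all genes were called, 38.5% with the block and 33.8% with the covariate. Without 6 libraries 13.4% were called higher and 11.5% lower over both genotypes. In control it was 8.90%, 27.1% and 22.9%, and in cKO 4.19% and, with the block, 18.8%. For genotype over both treatments it was 0.479%, 3.94% with DESeq2, 7.47% with the covariate and 15.3% without 6. Counts of members are to be read beside these shares, which are not given here for the other fits. The fits without 6 libraries and with block and covariate together were chosen after seeing the data. The block moved counts of calls by more than 1.5 times. Its pairing is at most a hint from the data, as other pairings are not given for comparison.

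Directions that turned round belonged to effects that were not called (61 cases, adjusted p at least 0.501). Without the 6 libraries, the hormone effect was 0.11 for Ereg and -0.23 for Erbb4 in control, 0.073 for Ereg and 0.0066 for Tgfa in cKO (also without 4), and 0.089 for Ereg over both; the genotype effect was 0.30 for Ereg under vehicle, -0.0046 for Erbb2 under E2/MPA, and 0.25 for Areg and 0.097 for Nrg1 over both; the interaction was -0.032 for Ereg and -0.0072 for Hbegf. Ereg in cKO was 0.083 with array weights. Under vehicle the genotype effect was -0.0073 (edgeR) and -0.0084 (DESeq2) for Egfr and 0.013 (covariate) and 0.010 (both) for Ereg, and under E2/MPA -0.061 for Nrg1 without 4. Over both treatments Areg was 0.11 (quantile), 0.050 (edgeR), 0.048 (DESeq2), 0.12 (array weights) and 0.10 (covariate or both). Leaving out 1 library at a time gave a range across 0 for the hormone effect on Erbb4 in control (-0.25 to 2.09) and on Ereg (-0.39 to 0.40) and Tgfa (-0.094 to 0.020) in cKO. The same held for the genotype effect under vehicle on Ereg (-0.64 to 0.17) and Egfr (-0.094 to 0.18), under E2/MPA on Ereg (-0.012 to 0.62), Egf (-0.46 to 0.020) and Nrg1 (-0.28 to 0.25), and over both treatments on Areg (-0.18 to 0.14) and Ereg (-0.17 to 0.24), and for the interaction of Erbb3 (-0.026 to 0.13). The cause was not tested. Depth limits Egf, Nrg2 and Epgn, at 0 to 19 reads per library.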
